A study of Homo sapiens with 6 samples.

Results

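The regions described here lay far from protein-coding gene ends and held a called peak in every ATAC-seq library of the study. Peak intervals of all 6 lists on chromosomes 1 to 22 and X were merged wherever they overlapped by 1 bp, which gave 28879 regions. A region was kept when each of the 6 lists held a peak in it and when it lay more than 1000 bp from both ends of every RefSeq protein-coding gene. The regions were thus chosen by position and by the presence of a called peak in each list, a measured value. The rule kept 758 regions, which were 23.2% of the 3269 regions found in all lists and 4.51% of the 16794 distal regions found in any list. The other 2511 regions found in all lists lay within 1000 bp of a gene end and are called gene-end regions below. Presence in every list is therefore a description and was not tested.

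All 6 libraries came from Huh7, a human hepatocellular carcinoma line, in which ARID1A had been knocked out and a Flag-tagged ARID1A put back with a lentivirus. The WT group (2 libraries) received wild-type ARID1A, the V2084D group (2) received the missense form, and the V2084D shSTUB1 group (2) received the missense form together with a knockdown of STUB1, an E3 ubiquitin ligase that works with chaperones. Every group carries the knockout, and no unmodified or knockout-only library was analysed here. The titles name no control hairpin, and the sources used here do not give the promoter of the transgene or the clonality of the cells. Nothing in the labels says that the replicates were separate cultures, and a p-value then speaks only of the spread between these libraries, which may be technical. Of 12 hepatocyte markers, 11 had no peak within 1000 bp of a gene end in any list, including ALB, AFP, TTR and HNF4A, and APOA1 was the exception. Of 6 fibroblast and stellate markers, COL1A1 alone had such a peak, and it was in all lists. Such peaks stood at 2 of 9 leukocyte, 1 of 5 endothelial and 2 of 5 neuronal markers, none of them in all lists.

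ATAC-seq reads out DNA that a transposase can reach, and ARID1A is a subunit of the SWI/SNF complex, which moves nucleosomes and is best known for its work at enhancers. Open DNA away from annotated protein-coding ends can be an enhancer or an insulator, but it can also be the promoter of a non-coding gene. Small nuclear RNA genes such as those for U1 and U2 are short, strongly transcribed units of RNA polymerase II. Transfer RNA genes are read by RNA polymerase III, and the ribosomal RNA repeats by RNA polymerase I. A gene can also have more than 1 annotated start, so that an alternative start lies deep inside the span of the gene.

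RefSeq annotation placed 410 of the 758 regions (54.1%) at a transcription unit other than a protein-coding gene end, and the remaining 348 (45.9%) at none. The ends of structural RNA genes, meaning genes for transfer, small nuclear, ribosomal, small nucleolar, signal recognition particle or vault RNA, lay within 1000 bp of 66 regions (8.71%). A start window of a protein-coding gene, the 250 bases before to 50 bases after an annotated start, overlapped 159 further regions (21%). A start window of a long non-coding RNA (lncRNA) overlapped 86 more (11.3%). The end of another kind of non-coding gene, such as a pseudogene or microRNA, lay within 1000 bp of the last 99 (13.1%). These classes were set up after the lists had been seen, and each region was counted in the class named earliest.

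The start windows under the distal regions were often rich in GC boxes and CG dinucleotides, and 6 are printed here to show the letters behind the motif shares. They are the 3 protein-coding and 3 lncRNA windows that lay wholly inside a region and had the highest lowest-of-6 fold percentile. Each is given 5′ to 3′ on the gene's strand from RefSeq, build GRCh38.p14. Capitals mark matches on either strand to 7 motifs: the GC box GGGCGG, the CCAAT box CCAAT, the ETS core CCGGAAG, the NRF1 motif (GCGC, any base, then TGCGC), the CRE TGACGTCA, the AP-1 motif TGANTCA and the TATA box TATAAA. The THRAP3 window, chr1:36224193-36224492, lies on the plus strand inside the gene of a transcription and splicing cofactor. The PMVK window, chr1:154936670-154936969, lies on the minus strand inside the gene of phosphomevalonate kinase, an enzyme of sterol synthesis. The DNAJB1 window, chr19:14529222-14529521, lies on the minus strand inside the gene of an HSP40 co-chaperone. The lncRNA windows are LINC01778 at chr1:30824402-30824701 on the plus strand, MIR663AHG at chr20:26209184-26209483 on the minus strand, and the readthrough transcript STAG3L5P-PVRIG2P-PILRB at chr7:100335815-100336114 on the plus strand.
THRAP3 start window: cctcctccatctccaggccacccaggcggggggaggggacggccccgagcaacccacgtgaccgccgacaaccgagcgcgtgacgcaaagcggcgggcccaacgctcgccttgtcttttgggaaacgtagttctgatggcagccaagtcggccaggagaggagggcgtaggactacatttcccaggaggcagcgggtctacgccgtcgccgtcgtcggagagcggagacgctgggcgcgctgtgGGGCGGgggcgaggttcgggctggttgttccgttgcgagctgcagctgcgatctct
PMVK start window: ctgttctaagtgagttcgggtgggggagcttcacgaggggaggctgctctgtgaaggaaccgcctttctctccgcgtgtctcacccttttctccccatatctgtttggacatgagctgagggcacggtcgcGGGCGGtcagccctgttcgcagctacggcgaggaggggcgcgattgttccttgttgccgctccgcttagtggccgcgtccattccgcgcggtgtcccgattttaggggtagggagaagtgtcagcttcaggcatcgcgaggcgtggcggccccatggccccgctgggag
DNAJB1 start window: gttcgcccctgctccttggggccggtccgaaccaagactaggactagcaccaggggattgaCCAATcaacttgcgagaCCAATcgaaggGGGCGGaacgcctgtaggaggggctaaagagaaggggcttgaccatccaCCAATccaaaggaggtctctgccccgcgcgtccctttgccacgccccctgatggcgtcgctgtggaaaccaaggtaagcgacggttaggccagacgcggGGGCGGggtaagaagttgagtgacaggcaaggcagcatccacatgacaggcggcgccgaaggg
LINC01778 start window: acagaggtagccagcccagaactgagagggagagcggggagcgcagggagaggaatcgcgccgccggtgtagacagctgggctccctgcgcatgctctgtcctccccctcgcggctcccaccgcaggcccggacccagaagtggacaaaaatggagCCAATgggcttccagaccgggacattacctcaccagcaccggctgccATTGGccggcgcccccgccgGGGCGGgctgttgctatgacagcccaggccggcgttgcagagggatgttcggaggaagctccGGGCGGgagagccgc
MIR663AHG start window: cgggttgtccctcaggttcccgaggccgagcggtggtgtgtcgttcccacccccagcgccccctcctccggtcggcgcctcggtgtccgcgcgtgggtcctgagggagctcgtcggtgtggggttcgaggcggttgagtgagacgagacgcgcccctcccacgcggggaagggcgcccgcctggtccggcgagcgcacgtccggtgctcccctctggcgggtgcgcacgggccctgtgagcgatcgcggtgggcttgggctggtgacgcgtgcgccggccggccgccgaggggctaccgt
STAG3L5P-PVRIG2P-PILRB start window: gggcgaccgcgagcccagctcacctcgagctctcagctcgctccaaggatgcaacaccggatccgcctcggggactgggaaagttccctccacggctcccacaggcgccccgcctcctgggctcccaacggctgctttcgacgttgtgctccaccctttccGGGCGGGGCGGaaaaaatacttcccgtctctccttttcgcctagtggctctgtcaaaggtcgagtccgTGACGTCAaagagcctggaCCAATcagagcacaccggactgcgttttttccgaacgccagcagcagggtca

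In these sequences the DNAJB1 window held 3 CCAAT boxes and 2 GC boxes, and the STAG3L5P-PVRIG2P-PILRB window held a CRE beside 2 overlapping GC boxes. The MIR663AHG window held no match to any of the 7 motifs but was the richest of the 6 in CG dinucleotides, with 43. Over the 356 windows that overlapped a distal region, 70.2% held a GC box, against 74.1% of the 3530 windows under gene-end regions and 44.9% of all 34789 windows. The CCAAT box stood in 43.3%, 46.3% and 34.6% of the same sets, and the NRF1 motif in 13.8%, 15.6% and 5.75%. The ETS core was less frequent in windows under distal regions (16.0%) than under gene-end regions (24.4%), against 10.2% of all windows. TATAAA was in 4.21%, 2.63% and 11.6%, and the AP-1 motif in 6.46%, 2.75% and 7.69%. The contrast with the annotation at large was widest for the 145 lncRNA windows, of which 68.3% held a GC box against 25.5% of all 12788 lncRNA windows. Matches are a description of letters in 300-base windows, and windows of 1 gene overlap one another.

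The share of annotated regions rose with the number of lists that held a region. Among the 9713 distal regions in 1 list only, 13.3% had any of the 4 annotations, against 44.7% of the 866 regions in 5 lists and 54.1% in all 6. Start windows of either kind overlapped 4.05%, 29.0% and 33.2% of these sets. Regions in more lists were also wider, with medians of 200 bp in 1 list, 722.5 bp in 5 and 848.5 bp in all 6, and a wider region meets more annotation. Among regions of 700 to 1000 bp alone, 4 of the 18 in 1 list were annotated (22.2%), then 36.6% of the 93 in 2 lists, 41.6% of the 243 in 3, 40.5% of the 321 in 4, 54.3% of the 383 in 5 and 53.8% of the 353 in all lists. At like width the share was thus still higher in 5 or 6 lists than in fewer, and that of 5 and 6 lists was about the same. Structural RNA genes were at 0 to 3.74% of the regions of that width in up to 5 lists and at 8.22% in all 6.

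**Figure D1:**
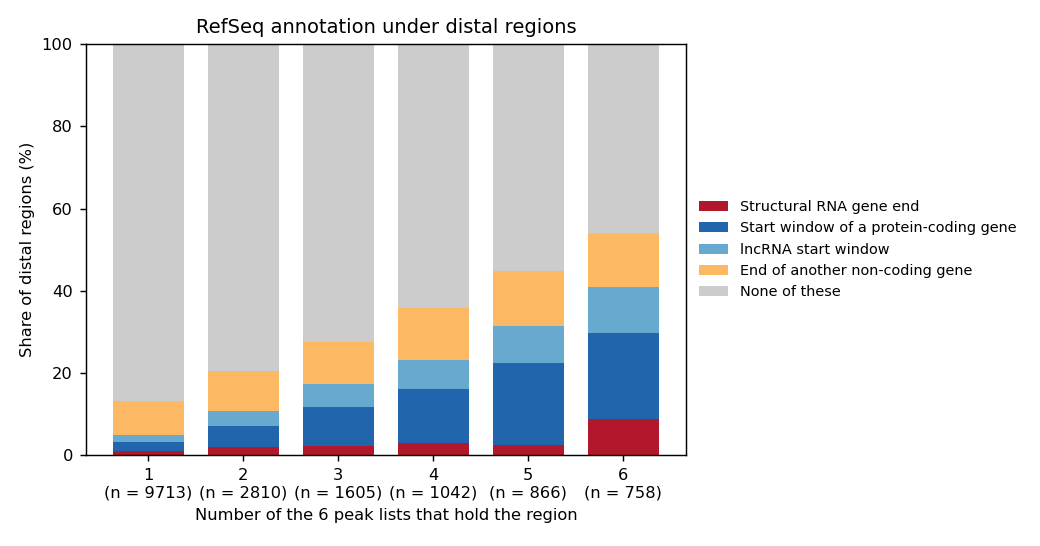
Share of distal regions (vertical axis, percent) in each annotation class, stacked, by the number of peak lists that held the region (horizontal axis, with the number of regions). The class with no such annotation falls from 86.7% of regions in 1 list to 45.9% of regions in all 6.

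The distal regions lay at all distances from genes. The median distance to the nearest end of a protein-coding gene was 16515 bp, with quartiles of 5997.5 and 54301 bp. Within 5 kb lay 156 regions and beyond 100 kb 108. Inside a protein-coding gene lay 343 of the 758, and their nearest genes numbered 666. The regions closest to the limit on the inside were near GYPC (1005 bp) and SCAF11 (1007 bp), and those just outside it were near LOC124900193 (988 bp) and SFR1 (973 bp). Their folds over local background, 4.82 to 6.77 just inside and 4.76 to 7.18 just outside, covered much the same range. The farthest region, chr1:125179493-125180605, lay 3716364 bp from LINC02798, which the gene table classes as protein-coding. By chromosome, 39 of the 278 distal regions of chromosome 21 (14.0%) and 72 of 718 on chromosome 19 (10.03%) were in all lists, against 4.51% over all chromosomes.

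Among the structural RNA genes, transfer RNA genes accounted for 26 regions, small nuclear RNA genes for 23, ribosomal RNA for 8, small nucleolar RNA for 5, and the 7SL RNA of the signal recognition particle and vault RNA for 2 each. Small nuclear RNAs are the cores of the spliceosome, and the 23 regions included RNU1-1, RNU1-2, RNU1-3 and RNU1-4 for U1, RNU5D-1 and RNU5F-1 for U5, and RNU4ATAC and RNU6ATAC of the minor spliceosome. The fold at RNU1-1 (chr1:16513625-16514627) was 7.21 and 8.76 for WT, 7.66 and 8.39 for V2084D and 6.75 and 7.02 for shSTUB1. Both shSTUB1 values were the lowest of the 6. At RNVU1-8, a U1 variant gene, the folds were 7.93 and 6.94, 7.05 and 8.25, and 7.83 and 8.60 in the same order, and the groups overlapped. The regions at RN7SL1 and RN7SL2, which make 7SL RNA, had folds of 5.68 to 9.62 and 5.0 to 7.66. VTRNA1-1, a vault RNA gene, had 5.68 to 7.47. Many of these genes have near-identical copies, and the sources used here do not give how reads were placed among copies, so the level at any 1 copy is uncertain.

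The U2 genes formed a group of their own. On chr17:43233523-43301018, next to CCDC200, 8 distal regions followed one another with gaps of 5893 to 14926 bp, and each sat on RNU2-1 or an annotated copy of it. U2 is the small nuclear RNA that recognises the intron branch point, and its genes are tandem repeats. At RNU2-1 itself (chr17:43233523-43234740) the fold was 5.31 and 5.14 for WT, 5.08 and 6.68 for V2084D and 4.84 and 5.34 for shSTUB1. The copy LOC124904138 (chr17:43251489-43252410) was the strongest of the array in every library, with 11.4 and 11.6, 11.6 and 12.8, and 12.1 and 12.9. It ranked at or above the percentile of 99.8 in each list. The reads at the strongest summits of the 8 regions, summed and divided by relative depth, were 254 and 210 for WT, 192 and 320 for V2084D and 267 and 244 for shSTUB1, so the V2084D libraries spanned the other 4.

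**Figure D2:**
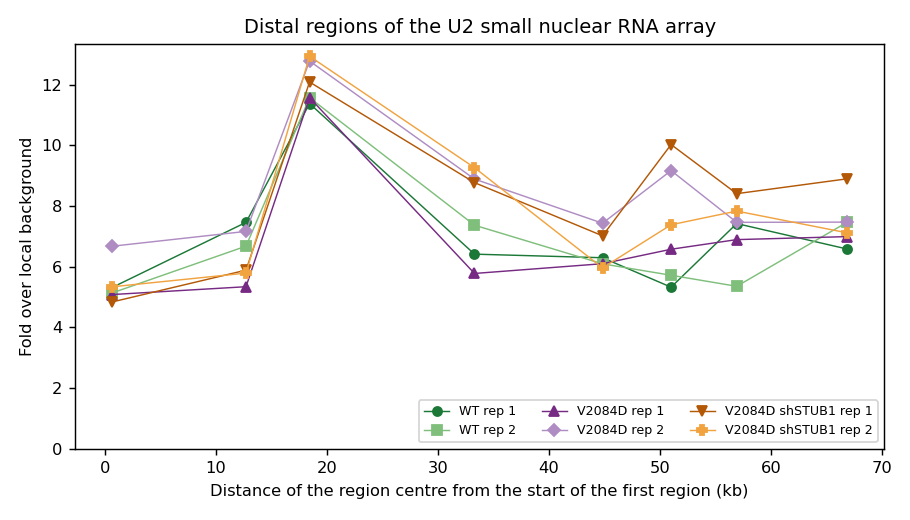
Fold over local background (vertical axis) at the 8 distal regions of the U2 array, by distance in kb from the start of the first region (horizontal axis), with 1 line and marker per library. The third region reaches 11.4 to 12.9 and is the highest of the array in all 6 libraries.

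Transfer RNA genes lay under regions scattered over many chromosomes. The strongest was TRE-TTC2-1, a glutamate transfer RNA gene at chr13:44917661-44918565, 20684 bp from NUFIP1. Its fold was 10.6 and 9.31 for WT, 8.08 and 9.41 for V2084D and 9.47 and 11.6 for shSTUB1. Both shSTUB1 folds were above both V2084D folds, by a narrow gap, and WT overlapped each of the others. Ranked among the regions present in all lists, this region stood at percentiles of 93.1 and 83.2 for V2084D. For shSTUB1 they were 92.2 and 99.6, so by rank these groups overlapped. Near FCGR2A and CFAP126, chr1:161399210-161470577 held 5 regions over transfer RNA genes, of which 3 repeat the same order of genes for glutamate, glycine, aspartate and leucine with a smallest gap of 7408 bp. Their folds ran from 2.82 to 8.57 over the 5 regions and 6 libraries. Over the 26 transfer RNA regions the median fold percentile within a list was 55.4 to 86.7, and over the 23 small nuclear RNA regions 67.3 to 91.2, against 57.3 to 83.01 over all 758.

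The ribosomal RNA repeats stood apart from the rest. On the short arm of chromosome 21, chr21:8209608-8260994 held 8 regions and chr21:8390087-8445899 held 7, over or beside RNA45SN1, RNA45SN2 and RNA45SN3, which make the precursor of the 18S and 28S ribosomal RNAs. Their summits had many reads but low folds, and the local background set by the peak caller was high as well. Over the 8 regions at an annotated ribosomal RNA gene, the median number of reads was 134.5 and 96 for WT, 64.5 and 129.5 for V2084D and 106.5 and 64.5 for shSTUB1. Their local background was 130 to 262 times the lowest of the list, and their median fold percentile 0.138 to 2.26. The 3 weakest of the 758 regions by fold were of these repeats: chr21:8390087-8390577 had folds of 2.06, 1.88, 2.31, 2.29, 2.23 and 2.40, listed as WT, V2084D and V2084D shSTUB1 with replicate 1 first in each. The repeats have many copies, which the reads cannot separate.

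Reads placed in the mitochondrial pseudogenes of chromosome 1 formed another such group. The 4 regions of chr1:629464-634219 overlap MTND2P28, MTCO1P12, MTATP8P1 and their neighbours, which are nuclear copies of mitochondrial genes. At the strongest region, chr1:629464-630114, the summit had 194 and 176 reads for WT, 167 and 122 for V2084D and 142 and 89 for shSTUB1. Summed over the 4 regions and divided by relative depth, the values were 533 and 488, 366 and 193, and 248 and 202. Both WT libraries lay above the other 4, and the V2084D and shSTUB1 libraries overlapped. The ribosomal regions had a like order, with sums per relative depth of 665 and 548 for WT, 363 and 475 for V2084D and 422 and 339 for shSTUB1 for the group of 8 regions, and 799 and 565, 360 and 497, and 452 and 387 for the group of 7. These orders were seen in the data and not tested, and 2 libraries against 2 cannot give an exact p-value below 0.333. Whether mitochondrial DNA, nuclear copies or the placement of reads moved with the groups was not tested.

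Reads and background rose together over the whole set. Both were solved from the same fold and −log10 p, and a called peak needs reads above its background. Such a rise is thus in part built in. A background above 50 times the lowest of their list stood at 26 distal regions, against 0 of the 2511 gene-end regions. Above 10 times lay 127 distal regions (16.8%) and 351 gene-end regions (14.0%). Besides the ribosomal and mitochondrial copies, 4 regions whose nearest gene was PLS3 on chromosome X belonged there. The strongest of them, chrX:115887435-115888554, had folds of 8.84 and 7.02 for WT, 8.21 and 8.50 for V2084D and 7.88 and 7.52 for shSTUB1, over a background of 53.2 times. The region with the highest folds of all, chr3:93470255-93470898, lay 402153 bp from PROS1, the gene of anticoagulant protein S, with no annotation of the classes above. Its folds were 21.4 and 20.5 for WT, 19.6 and 21.3 for V2084D and 21.8 and 21.5 for shSTUB1, on 274 to 426 reads and a background of 95.3 times. It was the top region of the 3269 in each of the 6 libraries.

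**Figure D3:**
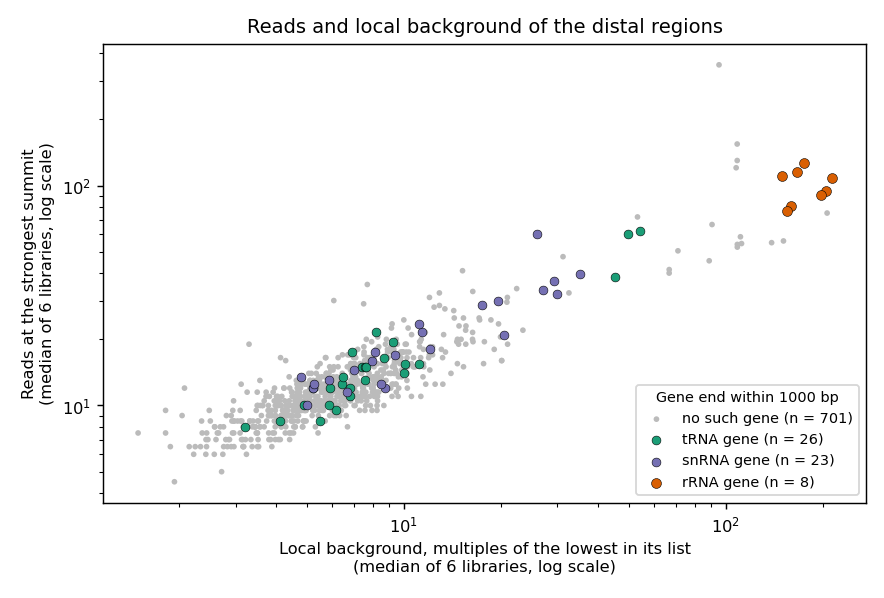
Reads at the strongest summit of each distal region (vertical axis, log scale) against its local background in multiples of the lowest in the list (horizontal axis, log scale), each the median of the 6 libraries. The 8 ribosomal RNA regions sit at the far right, and the lone point at the top is the chromosome 3 region near PROS1.

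The other regions of highest fold were of several kinds. A region inside HFM1, a gene of meiotic recombination, at chr1:91387136-91387648 had folds of 15.0 and 17.8 for WT, 11.5 and 15.7 for V2084D and 14.9 and 13.7 for shSTUB1. The nuclear copy of mitochondrial cytochrome b MTCYBP13, at chr17:22521242-22521674 and 816630 bp from KCNJ18, had 15.9 and 12.9, 13.9 and 11.1, and 19.4 and 13.6. At MTCYBP13 the folds of the groups overlapped. At HFM1 both WT folds were above both shSTUB1 folds, while V2084D overlapped each. Ranked among the 3269 shared regions, HFM1 stood at 99.89 and 99.95 for WT and 99.92 and 99.95 for shSTUB1. By rank these 2 groups thus overlapped. The THRAP3 start window printed above lay in a region with folds of 9.93 and 10.4, 7.67 and 12.7, and 8.94 and 8.74, and PMVK in 1 with 8.02 and 7.76, 8.62 and 9.83, and 8.18 and 8.63. The LINC01778 region ranked at percentiles of 81.3 and 89.0 for WT, 95.7 and 98.6 for V2084D and 98.5 and 99.8 for shSTUB1 among the 3269 shared regions, so both WT libraries were the lowest. A region inside RASA4 and another inside RASA4B, near-identical genes of a Ras regulator, had folds of 8.67 to 11.8 and 7.50 to 12.6. GLIDR, a lncRNA on chromosome 9, and a region inside DOC2A near C16orf92 completed the 12 regions whose fold percentile was 90 or more in every list.

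Clustering of the distal regions was limited, and the counts that follow include the arrays described above. Within 50 kb of another distal region lay 109 of the 758 (14.4%), in 40 groups, of which 12 held 3 or more. For gene-end regions the share was 22.1% by the same measure, and they are more numerous. At 12500 bp the order turned, with 8.05% of the distal and 3.11% of the gene-end regions. Without the 127 regions of high background the 50 kb share of distal regions was 5.71%. Of the 66 structural RNA regions, 35 were in groups, against 6 of the 159 at protein-coding start windows.

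MicroRNA genes overlapped 8 distal regions, and the 9 mature forms there had 9 different seeds. The region at chr12:62602552-62603938, 2076 bp from MON2, is printed for its microRNA because let-7i belongs to the let-7 family, which restrains growth-promoting genes. Capitals mark the seed, bases 2 to 8, and the sequence is from RefSeq GRCh38.p14, chr12:62603691-62603712 on the plus strand.
hsa-let-7i-5p: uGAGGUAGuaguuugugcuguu
Its region had folds of 6.12 and 4.74 for WT, 5.61 and 6.73 for V2084D and 8.97 and 5.41 for shSTUB1. The 3 groups overlapped, and the fold is that of the DNA, not of the microRNA.

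Distal regions nearest to liver genes were few, and their shares in all lists are given beside that of all distal regions. Of 62 distal regions nearest to 28 hepatocyte transcription factor genes, 2 were in all lists (3.23%), close to the 4.51% of all distal regions. They were near HNF4G, a nuclear receptor (82804 bp), and NR2F1 (941383 bp). Of 32 regions nearest to 41 genes of hepatocyte metabolism 1 was in all lists (3.13%), near ASL of the urea cycle. Of 6 near 39 genes of secreted proteins 1 was in all lists (16.7%). It lay 8784 bp from the transferrin gene TF, but inside SRPRB and at a start of that gene. The ASL region had folds of 5.84 in both WT libraries, 5.80 and 8.02 for V2084D and 5.81 and 6.79 for shSTUB1. The YAP and TEAD targets (55 distal regions) and the epithelial and mesenchymal genes (36) had 0. The Wnt and growth genes had 1 of 82 (1.22%), near IGF1R.

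SWI/SNF subunit genes, the family of ARID1A itself, were nearest to 34 distal regions, of which 4 were in all lists (11.8%). They were 2 at BCL7C, 1 at BICRA and 1 inside ARID1B, the paralog of ARID1A. Over all distal regions the share was 4.51%, and no difference from it was tested for any gene list. The ARID1B region, chr6:157021294-157021927, had folds of 3.57 and 5.13 for WT, 4.49 and 7.36 for V2084D and 5.50 and 4.69 for shSTUB1, and the groups overlapped. Of 38 regions near AP-1 factor genes 2 were in all lists (5.26%). The region near FOS, a growth-responsive AP-1 subunit, had folds of 7.37 and 8.76, 5.85 and 8.86, and 7.20 and 8.91, again with overlap. TGF-beta pathway genes had 2 of 80 (2.5%), near ACVR2A and at LNC-LBCS beside ID4. Chaperones and STUB1 partners had 1 of 14 by nearest gene (7.14%), inside DNAJC3. The DNAJB1 start window printed above counts to TECR, 1448 bp away, by that measure. Its folds were 11.1 and 9.0, 7.47 and 8.48, and 7.50 and 9.0, and both WT values were at or above the other 4. The marker lists of other cell types had 1 of 6 for leukocytes (16.7%, PTPRC) and 3 of 20 for neurons (15.0%, SYT1, GRIN1, MAP2). Endothelium had 0 of 15 and fibroblasts 0 of 13.

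The fold rank of the distal regions was compared with that of the gene-end regions within each list, since folds are the authors' own per-peak values and lists differ in length. The median fold percentile of the distal regions was 66.6 and 57.3 for WT, 62.8 and 83.01 for V2084D and 76.8 and 74.6 for shSTUB1. The gene-end regions had 71.9 and 64.8, 64.2 and 85.7, and 80.9 and 76.8. The distal median was lower in 6 of 6 libraries, by a mean of −3.84 ± 2.26 percentile points (SD, n = 6), with p = 0.03125 in a two-sided exact permutation test that flips the sign of each library's difference, the smallest value 6 libraries can give. With each list trimmed to the 7234 strongest summits, the length of the shortest list, the difference was −0.359 (exact permutation p = 0.9375). Without the regions of high background it was −2.84 (exact permutation p = 0.0625), so the call rests on those choices. Without V2084D replicate 1 the distance widened to −6.08. The same regions were scored in each library, so the p of this permutation test speaks of the spread between libraries, not between regions.

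**Figure D4:**
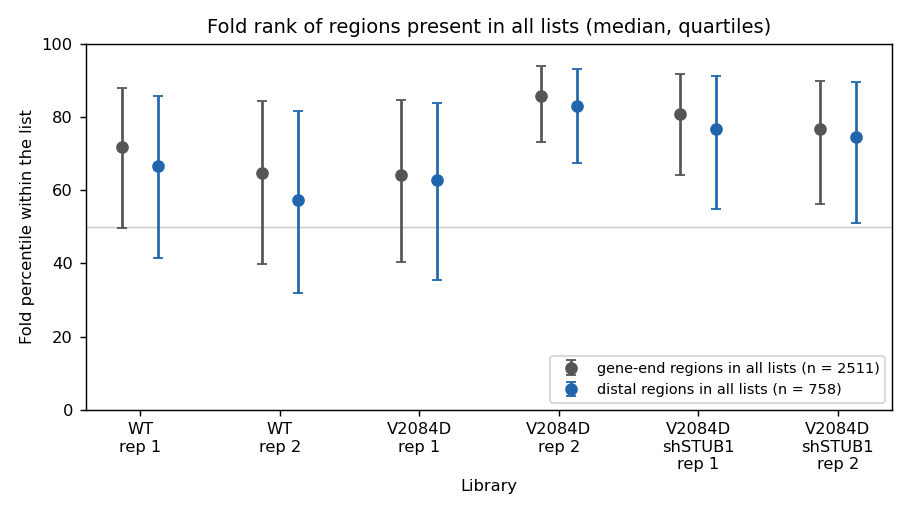
Median fold percentile within each list (vertical axis), with quartiles as bars, for the 758 distal and the 2511 gene-end regions present in all lists, by library (horizontal axis). The distal median lies below the gene-end median in every library, by 1.37 to 7.49 points, and the quartile bars overlap throughout.

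The distance between the sets was −6.39 ± 1.56 points in WT, −2.04 ± 0.943 in V2084D and −3.09 ± 1.32 in V2084D shSTUB1 (SD, n = 2 each). The WT distance was larger than that of V2084D by 4.35 points and larger than that of shSTUB1 by 3.29, and shSTUB1 minus V2084D was −1.05, with exact permutation p-values of 0.333, 0.333 and 0.667 and 0.5, 0.5 and 0.667 after adjustment over the 3 comparisons. The smallest p that 2 libraries against 2 allow is 0.333, so none of the 3 could pass. The sign of the shSTUB1 difference from V2084D turned without V2084D replicate 1 (0.0918). With only peaks of −log10 q of at least 5, the WT distance was larger than that of V2084D by 0.597 points, and without WT replicate 2 by 2.74.

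Distal regions at an annotated start window, of a protein-coding gene or lncRNA, ranked above those at no annotation in 6 of 6 libraries. The mean difference of their median percentiles was 6.60 ± 2.60 points (SD, n = 6), with a range of 2.75 to 9.22 and a two-sided exact permutation p of 0.03125, the same after adjustment over the 2 such tests. This test was added after the annotation had been seen, and it too scored the same regions in each library. It did not hold with lists of equal length (2.55 points, exact permutation p = 0.375), and with only peaks of −log10 q of at least 5 its sign turned (−1.15, exact permutation p = 0.8125).

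To compare the groups region by region, folds were ranked among the 3269 regions present in all lists, as percentiles. Both V2084D libraries ranked above both WT libraries at 148 of the 758 distal regions (19.5%), against 18.4% of all 3269, and below both at 135 (17.8%), against 19.1%. Both shSTUB1 libraries ranked above both V2084D libraries at 116 (15.3%), against 16.6%, and below at 113 (14.9%), against 16.2%. Against WT, shSTUB1 was above at 142 (18.7%), against 18.3%, and below at 128 (16.9%), against 18.5%. Each share of the distal regions was close to that of all regions. Split by annotation class, the shares ran from 10.6% to 26.7% above and from 9.30% to 25.8% below over the 3 comparisons, with no test by class.

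**Figure D5:**
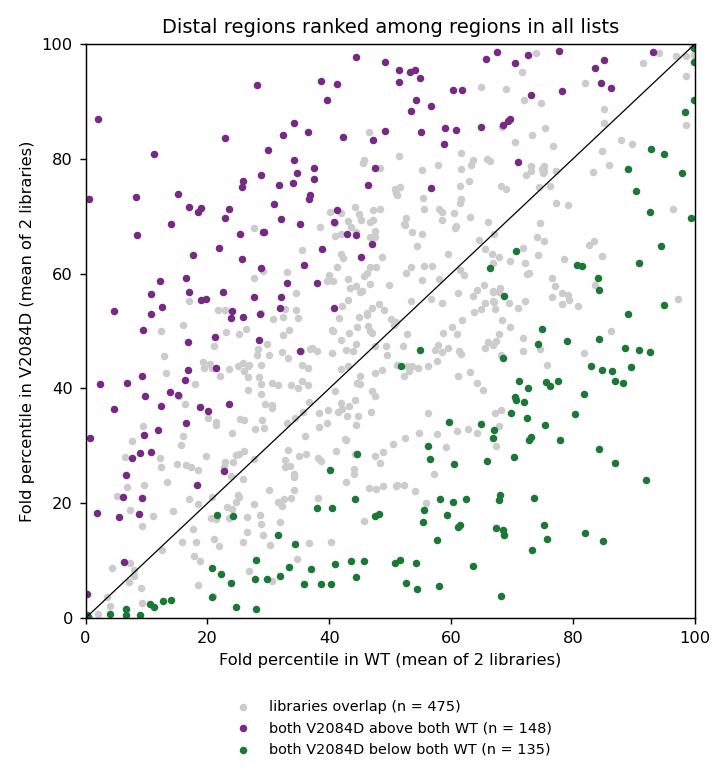
Mean fold percentile of each of the 758 distal regions in the 2 V2084D libraries (vertical axis) against the 2 WT libraries (horizontal axis), ranked among the 3269 regions in all lists, with the line of equal rank. Colours mark the 148 regions where both V2084D libraries ranked above both WT libraries and the 135 where both ranked below.

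The widest gap between V2084D and WT was at a region inside RSRP1, a gene of a splicing-factor-like protein, at chr1:25247340-25247925. Its fold was 4.11 and 3.62 for WT, 7.50 and 9.72 for V2084D and 5.61 and 5.62 for shSTUB1, which are percentiles of 3.43 and 0.704, 87.1 and 86.8, and 17.3 and 23.4. It was also among the 3 widest gaps downward from V2084D to shSTUB1, and its summit rested on only 5 and 4 reads for WT, 11 and 20 for V2084D and 10 and 8 for shSTUB1. The next regions upward in V2084D were near OR4C12, an olfactory receptor gene, and inside KCNN2, a potassium channel gene, on 3 and 3 and on 6 and 4 WT reads. Downward in V2084D were regions near ROPN1B, NDUFB11 and NPIPB3. The region near NDUFB11, a subunit gene of respiratory complex I, had folds of 8.55 and 8.33 for WT, 4.73 and 6.98 for V2084D and 7.93 and 6.88 for shSTUB1. Its summit rested on 12 and 12, 6 and 11, and 12 and 10 reads in the same order.

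With STUB1 knocked down, the widest gaps upward from V2084D were at a start of FAM50B, at a start of ATP5MC2, a subunit gene of the ATP synthase, and at the glutamine transfer RNA gene TRQ-TTG1-1. The FAM50B region had folds of 9.26 and 9.44 for shSTUB1, beside 5.48 and 5.0 for V2084D and 3.79 and 5.88 for WT. Its summit rested on only 14 and 16, 7 and 8, and 4 and 7 reads in the same order. Downward were regions inside PCDH9, a protocadherin gene, RSRP1 as above, and at a start of ATAD1. Against WT, the widest upward gaps of shSTUB1 were at the U1 variant RNVU1-7 near GPR89B, near DCUN1D4, and at a start of ZNF768. RNVU1-7 had folds of 5.73 and 5.17 for WT, 4.74 and 8.48 for V2084D and 10.9 and 8.46 for shSTUB1. Its summit rested on 6 and 8, 8 and 27, and 27 and 21 reads in the same order. Its background was 1.67 times the lowest in WT replicate 1 and 5.66 to 10.4 times in the other libraries. The DCUN1D4 region rested on 4 and 6 reads for WT and 13 and 11 for shSTUB1. Downward from WT were a start of PER2, a core clock gene, a region near EPHA5, and a start of ANO10. The PER2 region had 8.18 and 7.30 for WT, 5.75 and 8.45 for V2084D and 4.30 and 4.88 for shSTUB1. These regions were chosen for the size of their gap, so the values describe them and were not tested.

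The libraries differed in depth and in list length, and the effect of either on the ranks was not tested. Relative to WT replicate 2, the depth recovered from the lists was 1.01 for WT replicate 1, 1.17 and 1.70 for V2084D, and 1.49 and 1.23 for V2084D shSTUB1, and the lists held 6394 to 22215 regions. The strongest summit of a distal region had a median of 11 and 9 reads for WT, 10 and 20 for V2084D and 15 and 12 for shSTUB1. Of the 866 distal regions in 5 of 6 lists, 385 were missing from the list of WT replicate 2 and 271 from that of V2084D replicate 1, the shortest lists, and 1 from that of V2084D replicate 2. Spearman's rho of fold over the 758 regions was 0.348 to 0.449 for the 3 pairs of libraries of 1 group and 0.269 to 0.508 for the 12 pairs across groups. The same loci, with their own sequence and background, make up the points of every pair, and the coefficients are given as a description.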

How the data were processed

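The 6 ATAC-seq libraries were grouped by sample title. Reads went through MACS2, Bowtie2, Trimmomatic, Picard, SAMtools, bedtools and deepTools on build hg38, per the submitters' processing notes, which name them in no order. The sources used here give no versions, settings, treatment of reads with several matches or transposase shift. Deposited files are narrowPeak lists, 1 per library, called by the authors without pooling. The deposited score is the authors' rescaled significance. The deposited fold (a ratio of reads to local background) was used only for ranks within a list and as a description of each peak. The authors' caller also gave each deposited −log10 p and −log10 q, and the lowest −log10 q in a list was 1.30 to 1.31.

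Intervals on chromosomes 1 to 22 and X were merged over 1 bp and placed against 19974 protein-coding genes of the RefSeq table of GRCh38.p14, whose gene spans carry no strand. A region took its highest fold in each list, turned into a percentile of that list or of the 3269 shared regions. Reads and background at each summit were solved from fold and −log10 p, assuming MACS2's Poisson test with a pseudocount of 1. This gave whole reads for 100% of summits within 0.001. The lowest background of a list gave its relative depth. Counting error limits these values, as do the assumed caller model and the unknown placement of reads among copies.

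Libraries were compared by exact permutation, with signs flipped over 6 libraries or groups of 2 reassigned, and Benjamini-Hochberg adjustment. The code was tested on simulated data. Named regions were the 12 strongest and 3 weakest over all lists, the 6 largest groups of neighbours, up to 3 regions per gene list, the 3 widest rank gaps per comparison and direction, the 3 farthest from genes and those at the 1000 bp limit. Members, rule and the 14 gene lists (333 entries, all matched) were chosen with earlier results of these data known, and annotation classes and the start-window test after the lists had been seen. No genome sequence was used here, so sequences under the regions were read only where RefSeq start windows or microRNAs overlapped them, and printed from chromosomes other than 8. Python 3.11.15, pandas 2.3.3, NumPy 2.4.6, SciPy 1.17.1 and matplotlib 3.10.9 were used.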

Additional observations from a re-analysis of the deposited data

Results flagged for a closer look

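The unplaced chromosome 22 contig KI270733v1 lay outside chromosomes 1 to 22 and X and entered no comparison. It held summits in every list, 34 and 26 for WT, 24 and 39 for V2084D and 31 and 28 for shSTUB1, with highest folds of 6.15 to 9.69. It drew attention as a signal in data that the report does not use, and there are no control libraries to set it against.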

How the results depend on the processing

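Of 205 values recomputed under other choices, 144 kept their direction and their side of the threshold or, without a test, their size, 42 moved, 15 lost the threshold and 4 turned. The 3 group comparisons could not cross the threshold under any choice, so only their sign could change. Their values with replicate numbers as a block keep the same difference by construction. The count of kept values is therefore no measure of robustness. With −log10 q of at least 5, 138 distal regions remained in all lists, 37.7% of them inside a gene, 17.4% within 50 kb of another and 54.3% at a non-coding gene end. The start-window difference then was −1.15, V2084D minus WT 0.597, shSTUB1 minus WT 2.27, shSTUB1 minus V2084D 1.68, and the 6 counts of non-overlapping ranks, in the order of the report, 27, 27, 21, 24, 28 and 23. At equal list length the values were 340 regions, a distal share of 20.6%, 11.5% within 50 kb and 47.9% at a non-coding end, differences of −0.359 from gene-end regions, 2.55 for start windows, 5.51 for shSTUB1 minus WT and −0.0551 for shSTUB1 minus V2084D, and counts of 69, 56, 54, 55, 68 and 55. Where peaks had to cover 50% of the region, they were 120, 25.8%, 36.7% inside a gene, 19.2% and 50.8%, with differences of −5.85 from gene-end regions, 11.0 for start windows, 6.65 for V2084D minus WT and −1.85 for shSTUB1 minus V2084D, and counts of 27, 17, 21, 24, 24 and 18. Fewer regions enter these 3 alternatives by construction, and the cause of the other changes was not tested. Windows of 200 bp at summits gave 20.3% within 50 kb and shSTUB1 minus V2084D of −1.70, and neighbour limits of 12500 and 100000 bp gave 8.05% and 23.2%. The distal share was 24.9% beyond 500 bp and 21.5% beyond 2000 bp, and 466 regions were distal to the ends of all RefSeq genes. The mean fold over summits turned shSTUB1 minus V2084D to 0.179.

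Without regions of high background, a choice added after seeing the data, 5.71% lay within 50 kb, 34.9% at a non-coding end, and the distal difference was −2.84. Leaving out chromosome 21, also added later, changed no call. Leaving out each library in turn gave 745 to 1141 regions (1141 without WT replicate 2), distal shares of 23.2% to 25.5%, non-coding ends of 34.4% to 38.5%, distal differences of −6.08 (without V2084D replicate 1) to −3.91, start-window differences of 5.97 to 7.66, V2084D minus WT of 2.74 (without WT replicate 2) to 5.29, shSTUB1 minus WT of 2.08 (without WT replicate 2) to 3.63, and shSTUB1 minus V2084D of −2.14 (without shSTUB1 replicate 2) to 0.0918. With 5 libraries the smallest exact permutation p is 0.0625, so no call was possible there. Permuting within replicate numbers as a block left the differences at 4.35, −1.05 and 3.29 and gave exact p-values of 0.5, 1 and 0.5. Same-numbered libraries did not deviate together in fold rank (correlations of −0.00947, −0.00277 and −0.00796). At so few reads per summit this check cannot tell whether the numbers pair the libraries. Medians of 9 to 20 reads per summit limit every rank, and a missing peak says only that none was called at this depth.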
